A study of Homo sapiens and Mus musculus with 24 samples.

Results

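RNA levels of 9 complement and acute-phase genes were examined in MCF10A, a non-tumorigenic line of human mammary epithelium. The genes are C1S, C1R, C3, CFB, SERPING1, CD55, SAA1, SAA2 and LCN2, out of 56981 gene symbols in the tables. They were chosen as members of these systems with their levels in the 4 groups already known, so their differences between groups are given as descriptions with standard errors and without p-values. SAA1 and SAA2, which are near-identical copies, were also taken as a sum.

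The study set out to describe transcription under oncogenic PI3K. Knock-in (KI) cells carry a heterozygous PIK3CA H1047R allele, which makes the enzyme PI3K alpha overactive, and parental cells are the matched line without it. Each line was treated for 4 h with 1 uM BYL719 (alpelisib, an inhibitor of PI3K alpha) or with its solvent DMSO, and every combination had 3 libraries: KI BYL719, KI DMSO, parental BYL719 and parental DMSO. They are a commercial isogenic pair, so a difference between them cannot be told apart from a difference between clones. The labels do not say whether the 3 libraries of a group came from separate cultures, and p-values then measure the spread between these libraries, which may be technical. In bulk RNA, fewer cells of a type and less RNA per cell cannot be told apart.

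Complement is a cascade of plasma proteases and binding proteins. In the classical pathway the proteases C1r and C1s, carried by C1q, cut C4 and C2; the alternative pathway amplifies cleavage of C3 through factor B and factor D; cleaved C3 and C5 mark targets, attract leukocytes and start the membrane attack complex. C1 inhibitor (SERPING1) blocks C1r and C1s, and CD55 on the cell surface breaks up the enzymes that cut C3. Acute-phase proteins such as serum amyloid A are made mainly by the liver after interleukin-6 and interleukin-1, but many epithelia, the mammary gland included, make some complement and acute-phase proteins themselves.

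The libraries held 120177015 to 162755457 estimated read pairs each, and levels are given in CPM (counts-per-million), the estimated pairs of a gene scaled to the total of its library. KI DMSO replicate 2 stood apart: on the second principal component, which took 13.2% of the variance, it lay at 63.0, with the other KI DMSO libraries at 16.4 and 18.1. Results that rest on it are given with and without it. PIK3CA RNA was 69.3 to 72.2 CPM in KI BYL719, 33.4 to 44.3 in KI DMSO, 66.7 to 72.1 in parental BYL719 and 55.9 to 59.2 in parental DMSO, and gene-level values do not separate the mutant from the wild-type allele. All 8 mammary epithelial markers examined averaged 1 CPM or more in at least 1 group. Among them KRT5 was at 3190 to 3309 CPM in KI BYL719, 3536 to 3843 in KI DMSO, 3596 to 3794 in parental BYL719 and 3936 to 3997 in parental DMSO. CDH1 differed more between the lines, averaging 141 CPM in KI BYL719 and 110 in KI DMSO, against 263 in parental BYL719 and 241 in parental DMSO. Markers of hepatocytes, the main source of serum amyloid A in the body, summed over 8 genes to 0.131 to 0.358 CPM in any library.

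Promoter windows were matched in RefSeq (GRCh38.p14) for 4 of the 9 members, C1R, CFB, CD55 and LCN2. The 250 bases before each start are shown, because these members differed in pattern. C1R and CFB were higher in KI cells under either treatment, CD55 was higher only in BYL719, and LCN2 was higher in neither. Capitals mark matches, on either strand, to 4 short patterns: the NF-kB pattern (GGG, any 5 bases, CC), the ISRE pattern read by interferon-regulated factors (GAAA, any 2 bases, GAAA), the GAS pattern read by STAT factors (TTC, any 3 bases, GAA) and the C/EBP pattern (TTGC, any 2 bases, AA). These are the families of factors that acute-phase cytokines act through. C1R has 2 windows in the table, and the one farther upstream is shown.
CFB, chr6:31945845-31946094, plus strand: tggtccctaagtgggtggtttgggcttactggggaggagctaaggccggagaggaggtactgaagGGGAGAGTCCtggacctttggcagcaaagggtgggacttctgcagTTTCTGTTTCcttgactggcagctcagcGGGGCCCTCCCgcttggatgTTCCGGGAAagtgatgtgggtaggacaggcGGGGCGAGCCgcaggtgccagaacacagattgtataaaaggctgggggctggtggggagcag
C1R, chr12:7092446-7092695, minus strand: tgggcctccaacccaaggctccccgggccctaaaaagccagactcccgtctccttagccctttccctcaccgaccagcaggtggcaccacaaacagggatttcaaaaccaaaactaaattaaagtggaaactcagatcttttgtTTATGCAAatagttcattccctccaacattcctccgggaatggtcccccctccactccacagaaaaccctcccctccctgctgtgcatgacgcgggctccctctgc
CD55, chr1:207321428-207321677, plus strand: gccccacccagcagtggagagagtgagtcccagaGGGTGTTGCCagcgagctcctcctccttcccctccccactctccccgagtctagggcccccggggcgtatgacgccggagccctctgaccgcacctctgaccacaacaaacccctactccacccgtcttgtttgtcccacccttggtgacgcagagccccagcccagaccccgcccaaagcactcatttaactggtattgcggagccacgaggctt
LCN2, chr9:128149203-128149452, plus strand: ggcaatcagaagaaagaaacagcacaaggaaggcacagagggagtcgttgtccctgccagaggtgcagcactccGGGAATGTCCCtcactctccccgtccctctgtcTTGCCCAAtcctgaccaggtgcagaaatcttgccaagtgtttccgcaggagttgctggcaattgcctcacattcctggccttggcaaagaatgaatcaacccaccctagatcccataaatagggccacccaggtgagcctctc

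The CFB window held the NF-kB letters beginning 185, 112, 111 and 62 bases before the start, the matches at 112 and 111 overlapping each other, the ISRE letters beginning at 140 and the GAS letters at 92. The C1R window shown held only the C/EBP letters, beginning at 106, while its other window, before a start nearer the gene body, held NF-kB letters beginning at 185, C/EBP letters at 167 and GAS letters at 86. CD55 had an NF-kB match beginning at 216. LCN2, whose level differed little between groups, held overlapping NF-kB matches beginning at 176 and 175 and a C/EBP match at 143. Of 35116 RefSeq promoter windows, 54.4% held the NF-kB letters, 3.02% the ISRE letters, 6.57% the GAS letters and 9.05% the C/EBP letters. A match describes the letters only and is not a measured binding site.

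C1s and C1r were both made at a higher RNA level by KI cells, and BYL719 left that difference in place. C1S (chromosome 12, 6988259 to 7071032, plus strand, GRCh38) encodes the protease that cuts C4 and C2. Its level was 9.18, 10.0 and 10.5 CPM in KI BYL719 and 9.60, 9.83 and 9.87 in KI DMSO, against 1.02, 0.820 and 1.13 in parental BYL719 and 0.983, 1.01 and 0.987 in parental DMSO. All 6 KI libraries lay above all parental libraries, and within each line the BYL719 and DMSO libraries overlapped. On the log2 scale KI cells exceeded parental cells by 3.35 (SE 0.104) in BYL719 and by 3.33 (SE 0.103) in DMSO.

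C1R (chromosome 12, 7080199 to 7092607, minus strand) encodes the protease that activates C1s. It had 9.94, 10.9 and 10.7 CPM in KI BYL719 and 9.69, 9.37 and 8.84 in KI DMSO, against 3.46, 3.25 and 3.18 in parental BYL719 and 3.30, 3.42 and 3.29 in parental DMSO. The lines were again apart in every library, with log2 differences of KI over parental of 1.70 (SE 0.0668) in BYL719 and 1.51 (SE 0.0665) in DMSO. Within KI cells BYL719 exceeded DMSO by 0.17 (SE 0.0636), a small value beside the difference between the lines. The annotated span of C1S covers EMG1 and LPCAT3, and C1R overlaps its paralog C1RL. These neighbours differed less between the lines: EMG1 averaged 61.6 CPM in KI BYL719, 87.1 in KI DMSO, 60.2 in parental BYL719 and 65.5 in parental DMSO, LPCAT3 averaged 37.0, 33.3, 34.1 and 32.5 CPM in the same order, and C1RL averaged 16.2, 14.3, 13.5 and 12.6 CPM, higher in KI than in parental cells in each treatment.

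C3 (chromosome 19, 6677704 to 6730562, minus strand), the protein on which all complement pathways meet, was the member with the most estimated pairs. It reached 610, 647 and 631 CPM in KI BYL719 and 570, 421 and 549 in KI DMSO, against 107, 108 and 105 in parental BYL719 and 104, 98.8 and 104 in parental DMSO. The low value in KI DMSO is replicate 2, which still lay above every parental library. KI exceeded parental cells by 2.58 (SE 0.0855) on the log2 scale in BYL719 and by 2.35 (SE 0.0847) in DMSO, and by 2.47 in DMSO without that replicate. BYL719 over DMSO was 0.29 (SE 0.0805) in KI cells, 0.16 without replicate 2 of KI DMSO, and 0.06 (SE 0.0809) in parental cells. C3 overlaps GPR108, which averaged 41.8 CPM in KI BYL719, 37.6 in KI DMSO, 37.4 in parental BYL719 and 36.1 in parental DMSO, and AC008760.2, a transcript annotated as sense intronic, which averaged 0.496, 0.450, 0.0487 and 0.0567 CPM in the same order.

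CFB (chromosome 6, 31945650 to 31952084, plus strand) encodes factor B, the protease subunit of the alternative pathway's C3-cutting enzyme. It showed 20.9, 21.5 and 22.9 CPM in KI BYL719 and 20.6, 21.1 and 19.5 in KI DMSO, against 1.64, 1.82 and 1.88 in parental BYL719 and 1.71, 1.50 and 1.57 in parental DMSO. All 6 KI libraries lay far above all parental libraries, and the 2 treatments overlapped within each line. The log2 difference of KI over parental was 3.64 (SE 0.0765) in BYL719 and 3.70 (SE 0.0769) in DMSO, equal to 12.4-fold and 13.0-fold. The adjoining C2 gene, which overlaps CFB in the annotation and encodes its classical-pathway counterpart, averaged 0.0291 CPM in KI BYL719, 0.0321 in KI DMSO, 0.0772 in parental BYL719 and 0.0322 in parental DMSO.

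**Figure D1:**
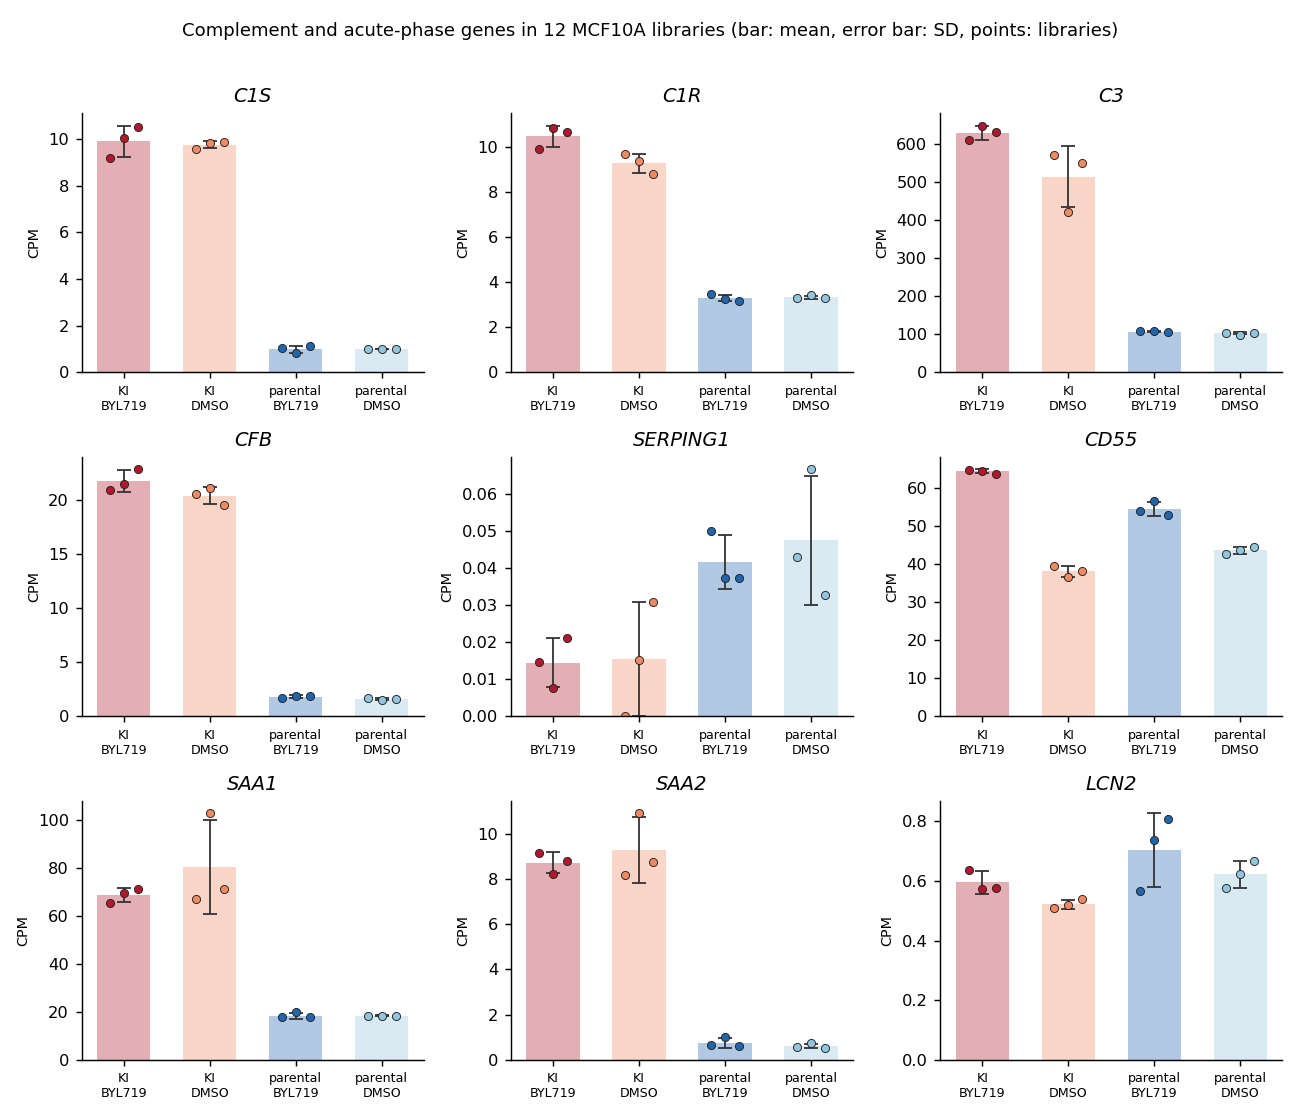
Level of each of the 9 genes in CPM (y axis, linear from 0, a different scale in each panel) in the 4 groups of 3 libraries. Bars are means, error bars the standard deviation and points the libraries. C1S, C1R, C3, CFB, SAA1 and SAA2 are higher in all 6 KI libraries than in any parental library, CD55 is higher in BYL719 than in DMSO within each line, and SERPING1 reaches at most 0.0667 CPM.

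The regulators among the members did not share that pattern. SERPING1 (chromosome 11, 57597387 to 57614853, plus strand), which encodes C1 inhibitor, was close to the lower limit of detection and was not tested. It had 2, 1 and 3 estimated pairs in KI BYL719 and 0, 2 and 4 in KI DMSO, against 6, 5 and 5 in parental BYL719 and 7, 9 and 4 in parental DMSO. With 3 pairs as the floor, equal to 0.0184 to 0.0250 CPM depending on the library, most KI libraries were at or under it and parental libraries were a few pairs above it. The RNA of the inhibitor was therefore barely detectable in cells in which C1S and C1R RNA was at about 10 CPM.

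CD55 (chromosome 1, 207321376 to 207386804, plus strand), also called decay-accelerating factor, was higher in all BYL719 libraries than in all DMSO libraries of each line. It measured 64.9, 64.5 and 63.9 CPM in KI BYL719 and 39.4, 36.5 and 38.2 in KI DMSO, against 54.0, 56.6 and 52.9 in parental BYL719 and 42.6, 43.7 and 44.5 in parental DMSO. No 2 of the 4 groups overlapped. BYL719 exceeded DMSO by 0.75 on the log2 scale (SE 0.0438) in KI cells and by 0.32 (SE 0.0437) in parental cells. KI cells were above parental cells by 0.27 (SE 0.0435) in BYL719 and below them by a log2 difference of -0.17 (SE 0.0437) in DMSO. Over 21 alternative settings the DMSO value lay between -0.20 and -0.12.

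Serum amyloid A is the acute-phase apolipoprotein of high-density lipoprotein. SAA1 (chromosome 11, 18266174 to 18269977, plus strand) stood at 65.4, 69.8 and 71.1 CPM in KI BYL719 and 67.0, 103 and 71.3 in KI DMSO, against 17.7, 19.8 and 17.7 in parental BYL719 and 18.2, 18.4 and 18.4 in parental DMSO. The value of 103 CPM is again KI DMSO replicate 2. KI over parental was 1.93 (SE 0.138) on the log2 scale in BYL719 and 2.16 (SE 0.139) in DMSO, and 1.93 in DMSO without that replicate. BYL719 over DMSO in KI cells was -0.24 (SE 0.132), and -0.01 without that replicate.

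SAA2 (chromosome 11, 18239223 to 18248643, minus strand) was lower in level and further apart between the lines. It had 9.15, 8.24 and 8.81 CPM in KI BYL719 and 8.17, 10.9 and 8.76 in KI DMSO, against 0.665, 0.994 and 0.594 in parental BYL719 and 0.561, 0.727 and 0.527 in parental DMSO. The log2 difference of KI over parental was 3.57 (SE 0.186) in BYL719 and 3.97 (SE 0.190) in DMSO. BYL719 over DMSO in KI cells was -0.10 (SE 0.156), and 0.04 without KI DMSO replicate 2. The sum of both genes differed by 2.04 (SE 0.135) in BYL719 and 2.27 (SE 0.136) in DMSO, and by 2.05 in DMSO without KI DMSO replicate 2.

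The coding sequences of SAA1 and SAA2 are identical at 355 of 366 aligned bases, 97.0%, with an identical stretch of 186 bases, which is longer than a read of 150 nt. The split of reads between them is therefore an estimate, and the sum is the firmer value. As estimated, SAA2 made up 11.3% ± 0.89 of the sum in KI BYL719, 10.5% ± 0.758 in KI DMSO, 3.88% ± 0.794 in parental BYL719 and 3.19% ± 0.533 in parental DMSO (SD, n = 3 each). The lowest KI share was 9.60% and the highest parental share 4.77%, so the estimated shares of the lines did not overlap.

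LCN2 (chromosome 9, 128149071 to 128153455, plus strand) encodes lipocalin-2, which binds the bacterial siderophores that carry iron. It was low in all groups, at 0.638, 0.571 and 0.575 CPM in KI BYL719 and 0.510, 0.519 and 0.539 in KI DMSO, against 0.566, 0.738 and 0.807 in parental BYL719 and 0.578, 0.622 and 0.669 in parental DMSO. Unlike the other acute-phase members it was not higher in KI cells, with log2 differences of KI over parental of -0.22 (SE 0.148) in BYL719 and -0.22 (SE 0.150) in DMSO.

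Counted over the 8 members tested, 7 were called (edgeR adjusted p under 0.05) between KI and parental cells in BYL719, all higher, when 22.4% of the 21055 genes tested were called, 11.5% higher and 10.9% lower. In DMSO 7 were called, 6 higher and CD55 lower, when 34.3% of all genes were called, 17% higher and 17.3% lower. BYL719 against DMSO called C3 and CD55 in KI cells, when 28.3% of all genes were called, and CD55 in parental cells, when 1.42% were. The members were chosen on these contrasts, so nothing is read from these counts. The libraries of the lines did not overlap for 7 members in BYL719 (46.1% of all genes) and 8 in DMSO (45.8%), and those of the treatments for 4 in KI cells (38.2%) and 2 in parental cells (31.5%). Without KI DMSO replicate 2, 7439 rather than 4710 genes were called between the lines in BYL719 and 1973 rather than 299 for BYL719 in parental cells. C3 in KI cells was no longer called when only the groups compared were fitted or without KI BYL719 replicate 2 or replicate 3. CD55 between the lines in DMSO was no longer called when transcript lengths entered the fit, with only the groups compared, or without parental DMSO replicate 3. The median log2 difference over the 8 members was 2.26 for KI over parental in BYL719, 2.26 in DMSO, 0.13 for BYL719 over DMSO in KI cells and 0.11 in parental cells, beside medians over all tested genes of 0.01, 0.00, 0.02 and 0.01.

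**Figure D2:**
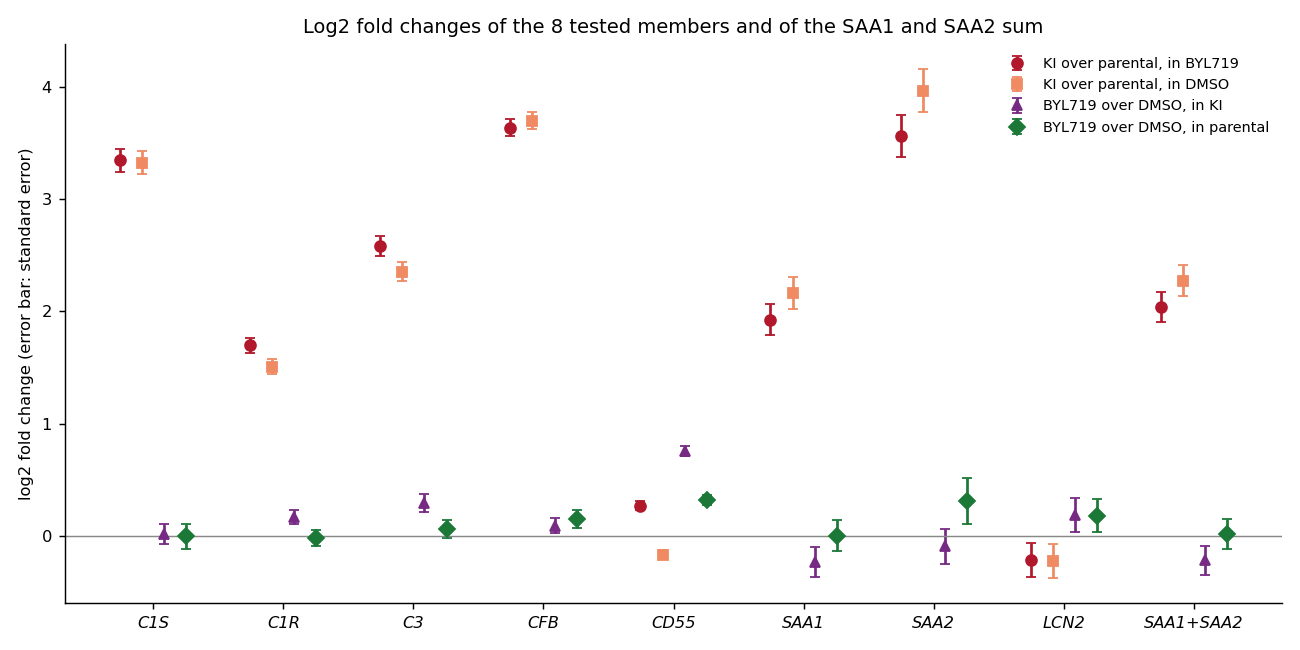
Log2 fold change (y axis) of the 8 tested members and of the SAA1 and SAA2 sum, with standard errors as bars, for KI over parental cells in each treatment and for BYL719 over DMSO in each line. The genotype differences of 6 members lie between 1.51 and 3.97, their drug differences lie between -0.24 (SAA1 in KI cells, -0.01 without KI DMSO replicate 2) and 0.31, and CD55 alone has its largest value, 0.75, for the drug.

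The drug effect in KI cells minus that in parental cells was 0.44 on the log2 scale (SE 0.0617) for CD55, the only member called for this difference, when 2.88% of all genes were called (607 genes, and 1874 without KI DMSO replicate 2). Since CD55 was chosen with these levels known, nothing is read from its call. For the other members it lay between -0.40 (SAA2, SE 0.258) and 0.23 (C3, SE 0.114). Without KI DMSO replicate 2 the values were 0.41 for CD55, 0.11 for C3 and -0.26 for SAA2, and SAA1 had -0.01 in place of -0.24. After 4 h of BYL719, C1S, CFB, SAA1 and SAA2 in KI cells each overlapped their DMSO libraries and stayed above every parental library.

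Per transcript length, in TPM, the length-corrected measure of transcript abundance, SAA1 was the most abundant member in each group, and the order below it differed between the lines. In KI BYL719 the levels were 304 ± 8.81 TPM for SAA1, 181 ± 3.22 for C3, 60.2 ± 1.59 for CD55, 33.4 ± 2.51 for SAA2 and 11.8 ± 0.665 for CFB. In parental BYL719 they were 81.1 ± 4.46 TPM for SAA1, 50.5 ± 2.91 for CD55, 30.2 ± 0.552 for C3, 2.87 ± 0.818 for SAA2 and 1.43 ± 0.268 for CFB (SD, n = 3 each). C3 thus ranked above CD55 in KI cells and below it in parental cells. C1R and C1S did not differ beyond their spread in KI BYL719, at 6.14 ± 0.389 and 6.07 ± 0.719 TPM, whereas in parental BYL719 C1R at 2.14 ± 0.118 TPM lay above C1S at 0.718 ± 0.116.

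Which transcript carried the RNA was not used to choose the members and could be tested. The share of the leading transcript in the gene's TPM was compared between KI and parental libraries by an exact two-sided permutation test that exchanged libraries within each treatment (400 arrangements, smallest possible p 0.005), with adjustment over the 5 members that had at least 2 transcripts at 5% or more. CFB-271, a protein-coding transcript of CFB, made up 86.9% ± 7.57 in KI BYL719 and 87.5% ± 4.32 in KI DMSO, against 48.4% ± 12.3 in parental BYL719 and 55.5% ± 8.77 in parental DMSO (SD, n = 3 each). All KI shares, 78.2% and above, exceeded all parental shares, 65.1% and below (exact permutation p = 0.005, adjusted 0.0125). The rest in parental cells was spread over short transcripts, most of them annotated as retained intron, such as CFB-280 with 11.5% in parental BYL719 and 9.70% in parental DMSO. Parental CFB shares rest on few reads, 693 estimated pairs in parental BYL719 and 675 in parental DMSO over 3 libraries, against 8939 in KI BYL719 and 8128 in KI DMSO, and the part of this depth gap in the share was not tested.

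C1R-215 made up 57.0% ± 7.14 of C1R in KI BYL719 and 56.7% ± 4.09 in KI DMSO, against 35.6% ± 5.76 in parental BYL719 and 26.4% ± 24.4 in parental DMSO (exact permutation p = 0.005, adjusted 0.0125). The parental DMSO shares ran from 0% to 48.2%, close to the lowest KI share of 49.6%. Parental C1R shares rest on 1277 estimated pairs in BYL719 and 1402 in DMSO over 3 libraries, against 4300 and 3708 in KI cells. The part of this depth gap in the share was not tested. C1R-209, which is also protein-coding, took 33.5% in KI BYL719 and 31.6% in KI DMSO, against 37.0% in parental BYL719 and 53.5% in parental DMSO. For C1S the share of C1S-202 was 12.9 percentage points higher in KI cells (exact permutation p = 0.01, adjusted 0.0167), but this did not hold when shares were taken from expected counts (-0.246 points for C1S-201, which then led), among protein-coding transcripts only (-0.179 points), or without parental DMSO replicate 1 (2.22 points for C1S-201). Shares of C3-201 (exact permutation p = 0.28) and CD55-206 (exact permutation p = 0.565) did not pass the test, with differences of -4.90 and 0.843 points. Among protein-coding transcripts only, CFB-271 was 11.3 points higher in KI cells (exact permutation p = 0.005, adjusted 0.02) while C1R-215, at 20.2 points higher, no longer passed (exact permutation p = 0.025, adjusted 0.05). From expected counts, CFB had no second transcript at 5% and was not tested.

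**Figure D3:**
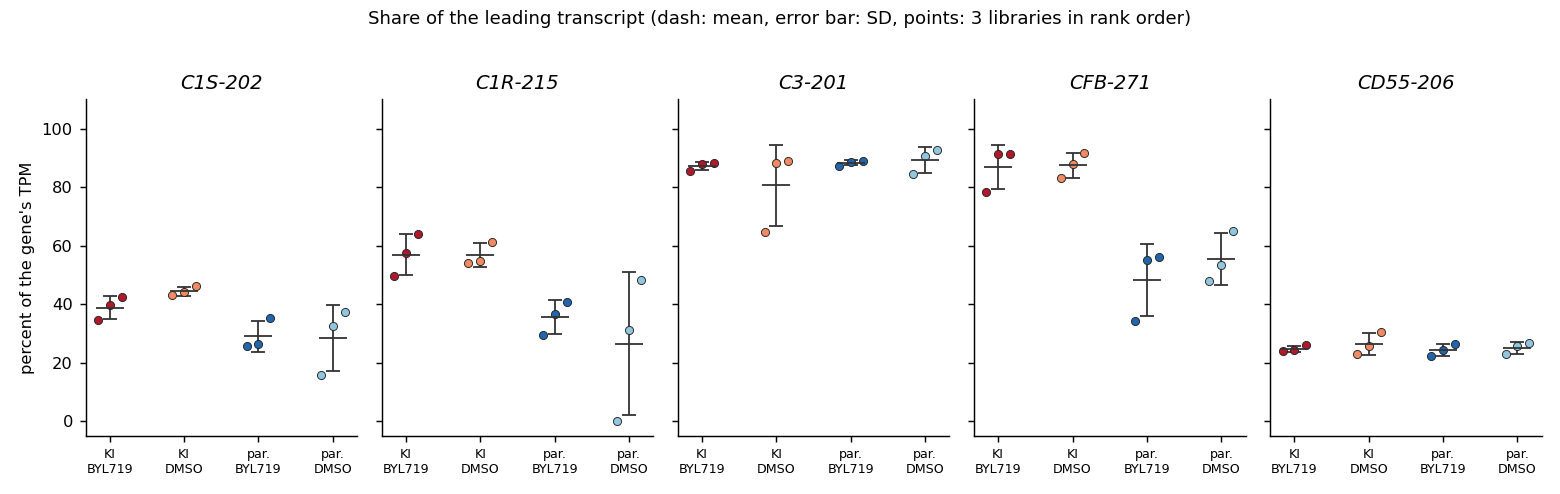
Share of the leading transcript in the TPM of its gene (y axis, percent) for the 5 members tested, in 4 groups of 3 libraries, with the mean as a dash, the standard deviation as a bar and the libraries as points in rank order. CFB-271 lies at 78.2% to 91.7% in KI libraries and at 34.2% to 65.1% in parental libraries, C3-201 has 1 low KI DMSO library at 64.7%, and CD55-206 lies between 22.3% and 30.4%.

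Genes whose profile over the 12 libraries was close to that of the members were sought among 13761 other genes with a mean of at least 1 CPM. Likeness was the root mean square difference, in log2 units, to the median profile of the 8 tested members, after each gene was centred. Genes with a small difference included KRT14 (0.145), SUSD2 (0.152), LAPTM5 (0.159) and KCNAB2 (0.167). KRT14, a keratin of basal epithelium that has near-identical pseudogenes, averaged 211 ± 12.7 CPM in KI BYL719 and 263 ± 28.4 in KI DMSO, against 50.4 ± 0.997 in parental BYL719 and 52.0 ± 0.549 in parental DMSO (SD, n = 3 each). These genes were picked for their likeness, which is a description. Among the members themselves C3 and SAA1 lay nearest to the median profile, at 0.185 each, and LCN2 and CD55 farthest, at 1.22 and 1.13.

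Other genes of these systems were taken from 9 lists with 125 genes, of which 79 could be tested. These lists and the marker lists below were drawn up with earlier results of these data known. Genes were then named mainly for a large called change. Their adjusted p-values do not allow for that choice, and so describe the size of a difference beside its spread. Where a pair of values is given for KI over parental cells, the first is in BYL719 and the second in DMSO. Between KI and parental cells 49 were called in BYL719 and 49 in DMSO, and BYL719 against DMSO called 19 in KI cells and 3 in parental cells, the last being 12 without KI DMSO replicate 2 and 8 with DESeq2. Over all genes tested, 22.4% were called between the lines in BYL719 and 34.3% in DMSO, and 28.3% for BYL719 in KI cells and 1.42% in parental cells, so the list genes called for the drug in KI cells were no larger a share than all genes. The upstream components of the classical pathway were mostly not made. C1QA, C1QB and C1QC, the chains of the recognition protein C1q, had 0 pairs in all 12 libraries, which for 3 pairs as the floor allows at most 0.0250 CPM. C2 reached at most 0.0822 CPM. Of the list's 15 genes 4 could be tested, and 2 were higher in KI cells in BYL719 and 1 in DMSO (median log2 difference 0.20 and 0.45, beside 22.4% and 34.3% of all genes called). They were C4A, at a log2 difference of 0.47 (SE 0.144, edgeR adjusted p = 0.0354) in BYL719 and 0.56 (SE 0.144, edgeR adjusted p = 0.00982) in DMSO, and in BYL719 its near-identical copy C4B, at 1.26 (SE 0.335, edgeR adjusted p = 0.0166). Both are uncertain, since reads cannot be divided safely between them, and in BYL719 neither was called in all of 21 alternative settings (C4A in 12, C4B in 17).

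In the alternative and terminal pathway 4 of 9 genes could be tested. CFD, the protease that cuts factor B, averaged 2.19 CPM in KI BYL719 and 2.60 in KI DMSO, against 1.36 in parental BYL719 and 1.34 in parental DMSO. It was higher in KI cells by 0.71 on the log2 scale in BYL719 (SE 0.158, edgeR adjusted p = 0.00567) and by 0.99 in DMSO (SE 0.157, edgeR adjusted p = 0.000402). C5 was higher in BYL719 than in DMSO in KI cells, by 0.59 (SE 0.0978, edgeR adjusted p = 0.000775), and lower in KI than in parental cells in DMSO by -0.29 (SE 0.0981, edgeR adjusted p = 0.0402). The second of these was called in 11 of 21 alternatives, and without KI DMSO replicate 2 it was -0.18 and not called. BYL719 over DMSO for C5 in parental cells was 0.20 (SE 0.0970, edgeR adjusted p = 0.458), not called.

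Regulators of complement include plasma and membrane proteins. Of 15 genes 8 were tested, and in KI against parental cells 5 were higher and 2 lower in BYL719, and 6 higher and 2 lower in DMSO (medians 0.39 and 0.41, beside 22.4% and 34.3% of all genes called in either direction). CFI, the protease that inactivates C3b with the help of cofactors such as CD46, had 2.84, 3.22 and 3.28 CPM in KI BYL719 and 2.81, 3.08 and 2.89 in KI DMSO, against 0.674, 0.827 and 0.726 in parental BYL719 and 1.09, 0.746 and 0.967 in parental DMSO. That was 2.09 (SE 0.139, edgeR adjusted p = 2.76e-07) in BYL719 and 1.67 (SE 0.135, edgeR adjusted p = 1.43e-06) in DMSO. CD59, which blocks the membrane attack complex, was abundant and modestly higher, at 725 CPM in KI BYL719 and 707 in KI DMSO, against 502 in parental BYL719 and 502 in parental DMSO.

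Clusterin (CLU), a soluble inhibitor of the attack complex, moved the other way. It averaged 23.6 CPM in KI BYL719 and 18.8 in KI DMSO, against 36.2 in parental BYL719 and 26.9 in parental DMSO, lower in KI by -0.60 (SE 0.0943, edgeR adjusted p = 0.000491) in BYL719 and -0.49 (SE 0.0948, edgeR adjusted p = 0.00163) in DMSO. BYL719 over DMSO was 0.32 in KI cells (SE 0.0949, edgeR adjusted p = 0.0238) and 0.43 in parental cells (SE 0.094, edgeR adjusted p = 0.048), and these were called in 16 and 10 of 21 alternatives, the parental one being lost without any one of the 6 parental libraries. Thrombomodulin (THBD), which promotes C3b inactivation at the cell surface, was lower in BYL719 than in DMSO in KI cells, at 39.7 against 53.0 CPM (log2 difference -0.42, SE 0.0888, edgeR adjusted p = 0.00395). In parental cells the THBD difference was -0.28 (SE 0.0889, edgeR adjusted p = 0.173), not called.

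Of 9 complement receptor genes 7 were tested, and KI against parental cells showed 2 higher in BYL719, and 2 higher and 1 lower in DMSO (medians 0.23 and 0.22, beside 22.4% and 34.3% of all genes called). C5AR2, the second receptor for the C5a peptide, had 5.75, 5.39 and 6.43 CPM in KI BYL719 and 5.11, 4.76 and 5.24 in KI DMSO, against 1.70, 1.74 and 1.82 in parental BYL719 and 1.56, 1.38 and 1.41 in parental DMSO. The log2 difference was 1.76 (SE 0.0873, edgeR adjusted p = 2.09e-08) in BYL719 and 1.82 (SE 0.0882, edgeR adjusted p = 1.68e-08) in DMSO. C3AR1, the receptor for C3a, was near 1 CPM or below, at 0.629 in KI BYL719 and 0.813 in KI DMSO, against 0.184 in parental BYL719 and 0.174 in parental DMSO (log2 differences 1.80 and 2.26, edgeR adjusted p = 9.36e-05 and 1.05e-05). C5AR1 was not called in DMSO (-0.31, SE 0.206, edgeR adjusted p = 0.272).

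**Figure D4:**
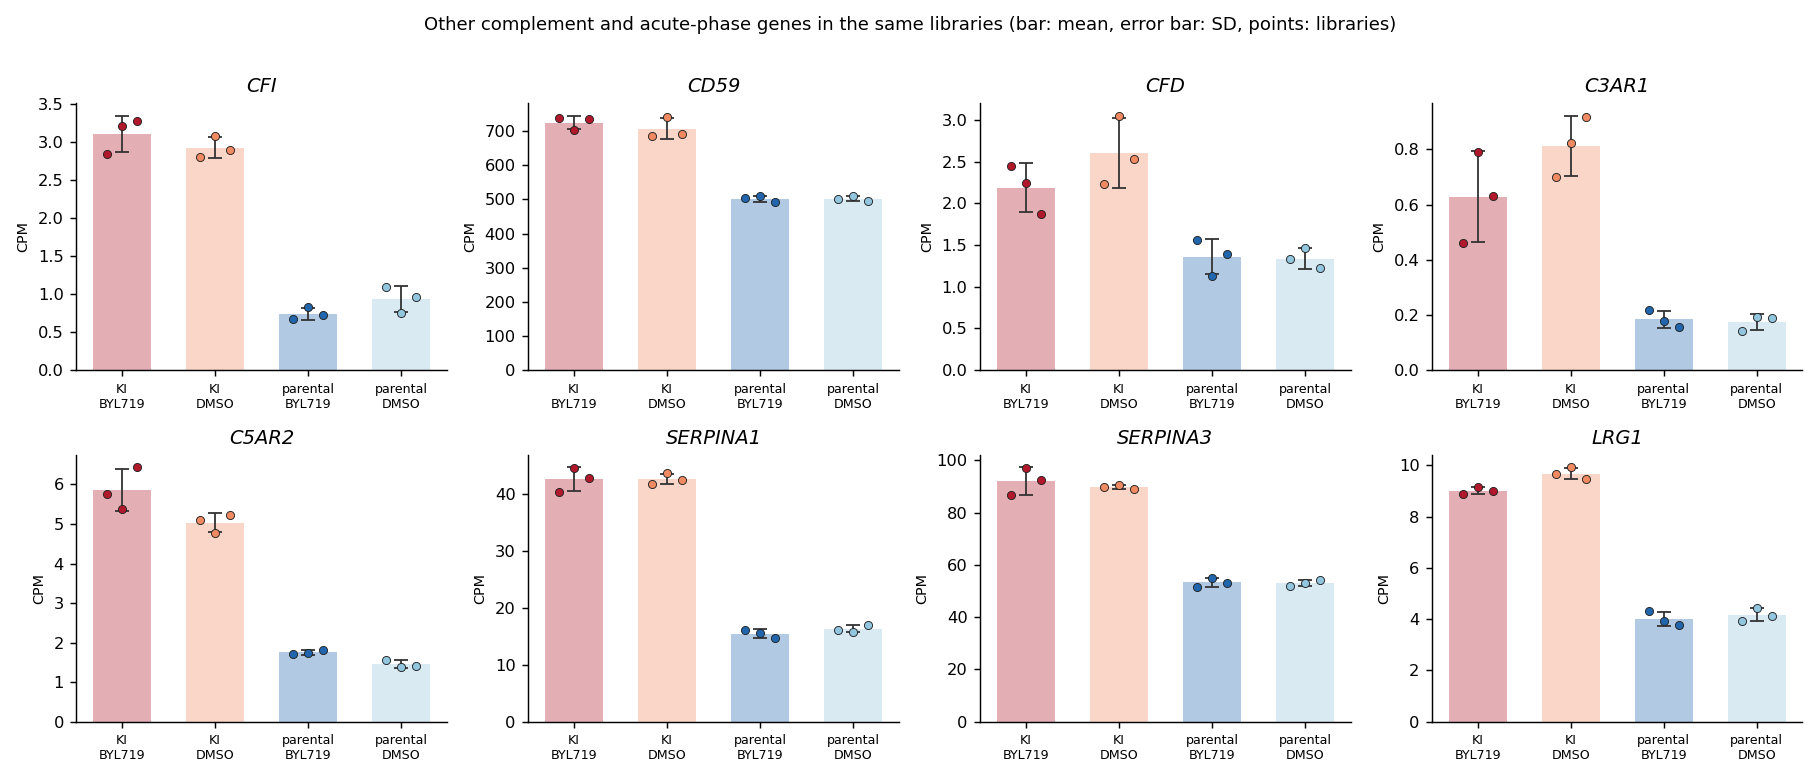
Level in CPM (y axis, linear from 0) of 8 other complement and acute-phase genes in the 4 groups of 3 libraries, with means as bars, standard deviations as error bars and libraries as points. CFI, C5AR2, SERPINA1, SERPINA3 and LRG1 are higher in every KI library than in any parental library. None of them was called for BYL719 against DMSO in either line, though each C5AR2 library in BYL719 lies above the DMSO libraries of its line.

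Most liver acute-phase genes were at or near 0: of 20 other acute-phase genes 8 passed the filter and 3 reached 1 CPM in a group, and CRP reached at most 0.0367 CPM. The 3 were all higher in KI cells. SERPINA1 (alpha-1-antitrypsin, the inhibitor of neutrophil elastase) had 40.4, 44.5 and 42.9 CPM in KI BYL719 and 41.9, 43.7 and 42.5 in KI DMSO, against 16.2, 15.5 and 14.8 in parental BYL719 and 16.1, 15.8 and 17.0 in parental DMSO, with log2 differences of 1.48 (SE 0.0578, edgeR adjusted p = 2.44e-09) and 1.41 (SE 0.0576, edgeR adjusted p = 3.66e-09). SERPINA3 (alpha-1-antichymotrypsin) was higher by 0.81 (SE 0.0491, edgeR adjusted p = 1.14e-07) in BYL719 and 0.79 (SE 0.0491, edgeR adjusted p = 1.37e-07) in DMSO. LRG1, a secreted glycoprotein with leucine-rich repeats, was higher by 1.197 (SE 0.0715, edgeR adjusted p = 1.05e-07) in BYL719 and 1.24 (SE 0.0712, edgeR adjusted p = 6.65e-08) in DMSO. Over the list 4 genes were higher in BYL719, and 4 higher and 1 lower in DMSO (medians 0.68 and 0.70, beside 22.4% and 34.3% of all genes called).

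Partners of lipocalin-2 and genes of iron handling were examined beside LCN2. Of 10 tested, 5 were higher and 2 lower in KI cells in BYL719, and 5 higher and 3 lower in DMSO (medians 0.46 and 0.53, beside 22.4% and 34.3% of all genes called). HMOX1, which breaks down haem, averaged 23.8 CPM in KI BYL719 and 23.7 in KI DMSO, against 6.14 in parental BYL719 and 6.53 in parental DMSO (log2 differences 1.98 and 1.89, edgeR adjusted p = 5.19e-10 and 6.15e-10). The ferritin light chain FTL (1.14 and 1.23, edgeR adjusted p = 9.36e-07 and 4.35e-07) and the transferrin receptor TFRC (0.98 and 1.09, edgeR adjusted p = 3.27e-06 and 1.16e-06) were also higher in BYL719 and in DMSO. MMP9, the protease that lipocalin-2 binds, went the other way, with 9.45 CPM in KI BYL719 and 9.30 in KI DMSO, against 31.6 in parental BYL719 and 31.6 in parental DMSO (-1.71 and -1.74, edgeR adjusted p = 3.57e-08 and 2.83e-08).

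The cytokines that induce these genes in liver were partly detected. IL6 reached at most 0.259 CPM and TNF at most 0.00763 CPM, while both interleukin-1 genes were higher in KI cells. Both also averaged less under BYL719 in each line, a difference called in KI cells only. IL1A had 10.3, 6.39 and 6.94 CPM in KI BYL719 and 15.5, 15.7 and 18.6 in KI DMSO, against 3.83, 3.74 and 3.57 in parental BYL719 and 6.10, 5.61 and 5.07 in parental DMSO. No KI library fell below a parental library, and within each line all BYL719 libraries lay below all DMSO libraries. KI over parental was 1.11 (SE 0.155, edgeR adjusted p = 0.000175) in BYL719 and 1.60 (SE 0.152, edgeR adjusted p = 5.82e-06) in DMSO, and BYL719 over DMSO in KI cells was -1.08 (SE 0.149, edgeR adjusted p = 0.000215). In parental cells it was -0.60 (SE 0.155, edgeR adjusted p = 0.0944), which was not called.

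IL1B averaged 1.90 CPM in KI BYL719 and 3.30 in KI DMSO, against 0.724 in parental BYL719 and 1.16 in parental DMSO. It was higher in KI cells by 1.42 (SE 0.163, edgeR adjusted p = 3.63e-05) in BYL719 and 1.53 (SE 0.156, edgeR adjusted p = 1.04e-05) in DMSO, and BYL719 over DMSO in KI cells was -0.80 (SE 0.151, edgeR adjusted p = 0.00193). In parental cells the drug difference of IL1B was -0.69 (SE 0.166, edgeR adjusted p = 0.0689), which was not called. LIF, which acts through the gp130 receptor chain, was higher in KI cells by 0.74 in BYL719 and 0.74 in DMSO, and IL11, which uses the same chain, was lower by -0.82 and -0.68 (edgeR adjusted p = 0.00201 and 0.00126 for LIF, 0.000154 and 0.000537 for IL11). Of 6 cytokine genes tested 3 were lower under BYL719 in KI cells, where 28.3% of all genes were called. In parental cells, where 1.42% of all genes were called, edgeR called 0 of 6, with 4 at an unadjusted p under 0.05 and 2 called by DESeq2.

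Of 16 receptor genes for these cytokines, all tested, 10 were higher and 2 lower in KI cells in BYL719, and 6 higher and 1 lower in DMSO (medians 0.25 and 0.18, beside 22.4% and 34.3% of all genes called). IL1R1, the signalling receptor of interleukin-1, averaged 24.9 CPM in KI BYL719 and 24.5 in KI DMSO, against 11.1 in parental BYL719 and 11.8 in parental DMSO (1.19 and 1.08, edgeR adjusted p = 1.90e-06 and 3.59e-06). OSMR, the oncostatin M receptor, differed by 0.72 (SE 0.112, edgeR adjusted p = 0.000456) in BYL719 and 0.42 (SE 0.112, edgeR adjusted p = 0.0123) in DMSO, the second not being called when only the groups compared were fitted. IL6R, the receptor of interleukin-6, followed the drug, at 91.1 CPM in KI BYL719 against 61.4 in KI DMSO, and 80.1 in parental BYL719 against 62.6 in parental DMSO (0.57 in KI and 0.35 in parental cells, edgeR adjusted p = 2.35e-06 and 0.00215).

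Among 16 transcription factors and feedback genes of acute-phase induction, 8 were higher and 1 lower in KI cells in BYL719, and 9 higher and 2 lower in DMSO (medians 0.20 and 0.27, beside 22.4% and 34.3% of all genes called). TNFAIP3, a feedback inhibitor of NF-kB, averaged 12.4 CPM in KI BYL719 and 10.7 in KI DMSO, against 4.93 in parental BYL719 and 5.38 in parental DMSO (1.35 and 1.02, edgeR adjusted p = 4.08e-07 and 4.31e-06). SOCS3, the feedback inhibitor of gp130 signalling, was higher by 0.44 and 0.55 (edgeR adjusted p = 0.00226 and 0.000335). CEBPA was lower in KI cells by -1.11 in BYL719 and -0.84 in DMSO (edgeR adjusted p = 2.65e-05 and 0.000195), and CEBPD lower in DMSO by -0.70 (edgeR adjusted p = 0.00437). STAT3, the main factor of interleukin-6 signalling, differed little, by 0.19 and 0.17 (edgeR adjusted p = 0.0125 and 0.0134).

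NFKBIZ, an atypical nuclear IkB protein that acts with NF-kB, was higher under the drug in both lines. It had 15.6, 17.3 and 17.1 CPM in KI BYL719 and 8.92, 8.17 and 9.52 in KI DMSO, and 9.84, 10.1 and 11.7 in parental BYL719 and 7.24, 7.18 and 6.35 in parental DMSO. BYL719 over DMSO was 0.91 (SE 0.0797, edgeR adjusted p = 7.23e-06) in KI cells and 0.61 (SE 0.0805, edgeR adjusted p = 0.00317) in parental cells. CEBPD was higher under BYL719 in KI cells by 0.75 (SE 0.158, edgeR adjusted p = 0.00376) and REL by 0.89 (SE 0.206, edgeR adjusted p = 0.00717). In parental cells CEBPD differed by 0.50 (SE 0.156, edgeR adjusted p = 0.173) and REL by 0.42 (SE 0.204, edgeR adjusted p = 0.462), neither called. BCL3 went the other way in KI cells, with BYL719 over DMSO at -0.49 (SE 0.118, edgeR adjusted p = 0.00845). The parental value of BCL3 was -0.28 (SE 0.118, edgeR adjusted p = 0.369), not called. The parental value of NFKBIZ was not called with length offsets, and the KI values of REL and BCL3 were not called with only the groups compared. Of the 79 tested genes of the 9 lists, edgeR called 0 for a drug effect that differed between the lines, with 11 at an unadjusted p under 0.05, and DESeq2 called 1, IL6R. Without KI DMSO replicate 2 edgeR called 3.

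**Figure D5:**
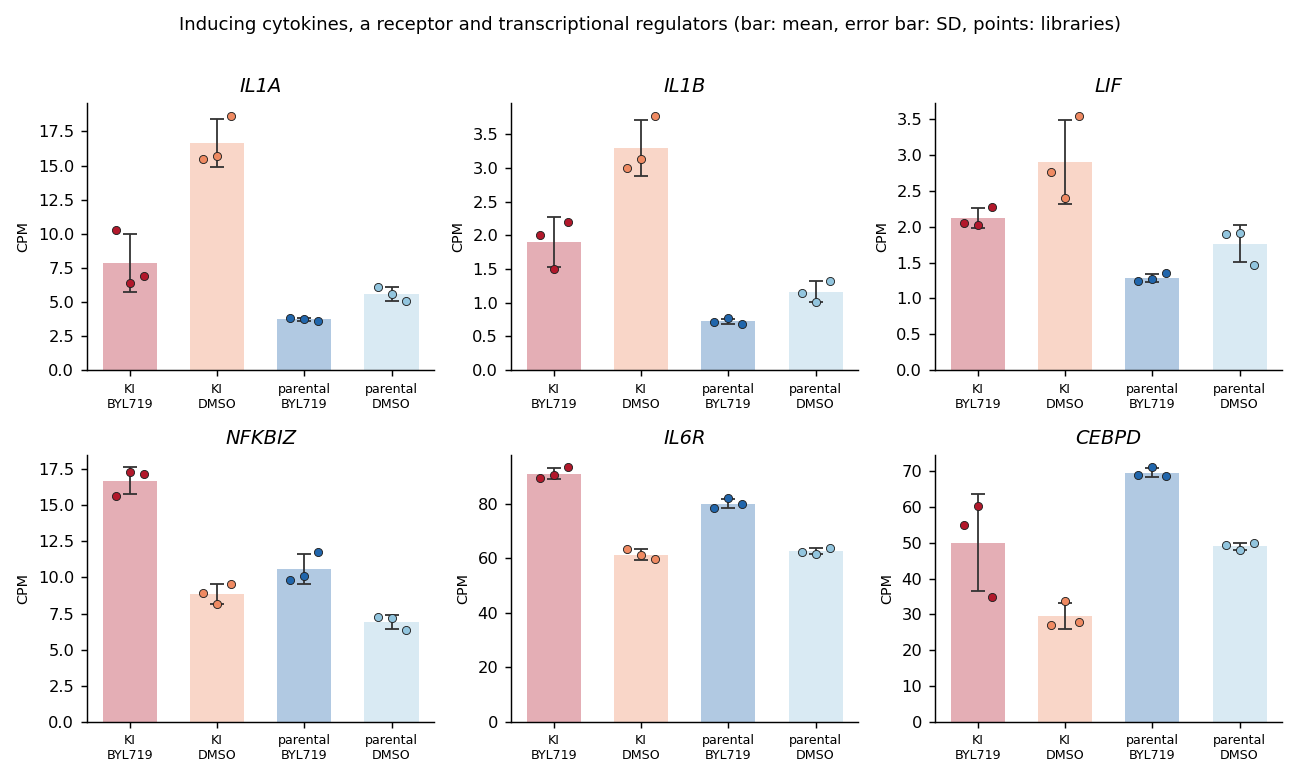
Level in CPM (y axis, linear from 0) of 3 inducing cytokines, the receptor IL6R and the regulators NFKBIZ and CEBPD in the 4 groups of 3 libraries, with means as bars, standard deviations as error bars and libraries as points. IL1A and IL1B are higher in KI than in parental cells and have lower means in BYL719 than in DMSO in each line. Their drug difference was called in KI cells and not in parental cells, where it was -0.60 and -0.69 on the log2 scale. NFKBIZ and IL6R are higher in BYL719 within each line.

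Markers of other cell types were summed in each library beside these results. Fibroblast markers (8 genes) summed to 185 to 223 CPM in KI BYL719, 116 to 118 in KI DMSO, 66.7 to 70.8 in parental BYL719 and 59.5 to 61.1 in parental DMSO. In KI against parental cells 3 were higher and 1 lower in BYL719, and 2 higher and 1 lower in DMSO (beside 22.4% and 34.3% of all genes called). DCN carried most of this, at 123 to 148 CPM in KI BYL719 and 51.3 to 55.9 in KI DMSO, against 10.0 to 10.8 in parental BYL719 and 3.96 to 5.10 in parental DMSO, while COL1A1 was at 17.2 to 24.8, 21.9 to 24.0, 24.1 to 26.1 and 23.1 to 25.6 CPM in the same order and PDGFRA reached at most 0.441 CPM. KI BYL719 replicate 3 alone had COL1A2 at 4.33 and COL3A1 at 2.12 CPM, against highest values of 0.306 and 0.157 in the other groups.

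Haematopoietic markers (10 genes) summed to 31.2 to 33.0 CPM in KI BYL719 and 28.5 to 31.2 in KI DMSO, against 35.3 to 36.7 in parental BYL719 and 36.7 to 37.2 in parental DMSO, most of it CD68 and CSF1R, and the leukocyte marker PTPRC reached at most 0.0762 CPM. Endothelial markers (6 genes) summed to 2.71 to 2.97, 1.15 to 1.80, 2.43 to 2.66 and 1.50 to 1.62 CPM in the same order. The part of these markers in the results was not tested. The 8 mammary epithelial markers summed to 5211 to 5401 CPM in KI BYL719, 5776 to 5974 in KI DMSO, 5860 to 6198 in parental BYL719 and 6280 to 6397 in parental DMSO. Of them, 2 were higher and 5 lower in KI cells in BYL719, and 2 higher and 4 lower in DMSO (beside 22.4% and 34.3% of all genes called). KRT14 was among those higher (2.09 and 2.37, edgeR adjusted p = 1.72e-09 and 6.10e-10). Those lower included TP63 (-0.82 and -1.48, edgeR adjusted p = 6.38e-06 and 3.50e-08) and CDH1 (-0.88 and -1.11, edgeR adjusted p = 2.40e-06 and 2.70e-07).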

How the data were processed

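RNA of MCF10A cells was sequenced as paired reads of 150 nt, 3 libraries for each of 4 groups; the 12 mouse libraries of the series were not used here, because their tables name no genes. Per the submitters' processing notes, the authors used Trim Galore 0.6.1, cutadapt, Salmon 1.2.1 and DESeq2 1.28.1 with GRCh38; the tools' settings and the strandedness of the libraries were not given there or in the labels. The deposited tables list 207749 transcripts with the authors' expected counts (estimated read pairs, not whole), TPM and effective lengths; other deposited values such as length and effective length served only as an offset in an alternative fit. Reads shared by transcripts were divided by Salmon's estimate, whose uncertainty is not in the tests, so near-identical and overlapping genes are uncertain.

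Expected counts were summed by symbol, CPM was taken on library totals, and rounded sums were fitted with edgeR 4.0.16 in R 4.3.3 (quasi-likelihood, robust, filterByExpr, TMM scaling, 4 group means over 12 libraries, 8 residual degrees of freedom). A gene was called at an adjusted p under 0.05 (Benjamini-Hochberg, 21055 genes, two-sided). SE is the standard error of the log2 fold change, taken as its absolute value over the square root of edgeR's F statistic. It therefore rests on the same fit as the p-values. The members and the 9 pathway and 5 marker lists were chosen with earlier results of these data known. Named list genes were the up to 4 called ones with the largest change per list and comparison at 0.5 CPM or more in a group compared, and others at 1 CPM or more were given by level; 1 gene that the rules name is not reported here. Simulated counts for KI against parental in DMSO over 21055 genes gave 91 of 100 4-fold and 62 of 100 1.5-fold changes, with 9 false calls. They were drawn from the spread of the fit itself, with few genes changed and no library standing apart. These rates therefore need not hold for the data. Floors cover counting error only. Alternatives were DESeq2 1.42.0, other scalings, no filter, length offsets, fewer groups or transcripts, a replicate block, and each library left out.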

Additional observations from a re-analysis of the deposited data

Results flagged for a closer look

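CD55 was picked out because the effect of BYL719 differed between the 2 lines. The drug effect in KI cells minus that in parental cells was 0.44 on the log2 scale (SE 0.0617), with 0.75 in KI and 0.32 in parental cells. Its level was 64.4 ± 0.528 CPM in KI BYL719 and 38.1 ± 1.43 in KI DMSO, against 54.5 ± 1.94 in parental BYL719 and 43.6 ± 0.931 in parental DMSO (SD, n = 3 each). The difference lay between 0.39 and 0.46 over 20 alternative settings, and 3 of 3 BYL719 libraries exceeded all DMSO libraries in each line. Because CD55 was chosen with its levels in all 4 groups known, this is given as a value and not as a test.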

How the results depend on the processing

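Called members numbered 7 for KI against parental in BYL719 (7 with each library left out) and 7 in DMSO (6 to 7), 1 for BYL719 in parental cells (1 throughout), 1 for the difference of drug effects (1 throughout), and 2 for BYL719 in KI cells (1 to 3, and 1 with only the groups compared). Of the members' alternative values 884 moved by less than the replicate spread or kept their side of the threshold, 47 moved, and no called value changed sign; of the values of named list genes, 1495 kept their call and 59 lost it. Over all genes, 4710 were called for KI against parental in BYL719 (3564 to 7439 with each library left out) and 7220 in DMSO (5761 to 8386). For BYL719 in KI cells 5968 were called (4237 to 6977, and 2614 with only the groups compared). For BYL719 in parental cells 299 were called (73 to 1973, 893 with DESeq2, 133 with effective-length offsets, 3486 with only the groups compared), and 58.5% of calls were higher, or 47.5% with DESeq2. The difference of drug effects called 607 genes (243 to 1874, 1434 with DESeq2, 278 with offsets), 72.3% of them higher, or 56.4% with DESeq2. List genes called for BYL719 in parental cells were 3 (2 to 12, 8 with DESeq2), and for the difference of drug effects 0 (0 to 3, 1 with DESeq2). Isoform shares passed for 3 members (2 to 3), 1 from expected counts and 1 among protein-coding transcripts. The cause of these shifts was not tested.

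Libraries sharing a replicate number had correlated deviations of 0.00 to 0.05. Little shared deviation was therefore seen, but 3 libraries a group are too few to decide whether the numbers pair them. With the replicate number as a block, 4514, 7109, 5830, 213 and 445 genes were called for KI against parental in BYL719 and in DMSO, for BYL719 in KI and in parental cells, and for the difference; members called stayed 7, 7, 2, 1 and 1, and list genes were 48, 50, 20, 2 and 0. SERPING1, at 0 to 9 estimated pairs a library, is limited by depth, and LCN2 at under 1 CPM has wide standard errors.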
